A study of Mus musculus with 12 samples.

Results

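Isl1, Isl2, Pou4f1, Tlx3, Phox2a, Drgx, Ret and Ntrk3 are genes by which developing neurons of the cranial ganglia are recognised, namely 6 homeobox genes of sensory and visceral neurons and 2 receptors for neurotrophic factors. The 8 genes were taken by symbol from a count table of 24421 symbols, in which Drgx stands under its older symbol Prrxl1. Of them, 7 of 8 passed the filter on low counts and were tested with the 14810 genes that passed it. Drgx had too few reads to be tested.

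RNA was sequenced from C57Bl/6 mouse embryos with a change of Eftud2, which encodes a GTPase of the spliceosome, described as specific to neural crest cells. The 12 libraries form 4 groups of 3: heterozygous embryos (Eftud2+/-, named control) and homozygous embryos (Eftud2-/-, named mutant), taken on embryonic days 9.0 and 9.5 (E9.0, E9.5). The controls thus carry 1 altered allele themselves. How many embryos went into a library and how the change was restricted to crest cells are not given in the sources used here, and nothing says that the libraries of a group came from separate embryos, so p-values measure the spread between these libraries, which may be technical. Somites were counted at dissection, but the numbers are not given in the sources used here.

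The source is named as neural crest cells and the tissue as cranial nerve ganglia, whereas the protocol describes heads. Markers of other tissues were present: at E9.5 the summed level of 8 heart genes was 903 to 1481 counts per 1000000 (CPM), that of 8 neural tube progenitor genes 769 to 956 CPM, and that of the 8 ganglion genes together 45.1 to 53.4 CPM. The values below are therefore levels in mixed tissue, in which fewer cells of a type and less RNA per cell cannot be told apart.

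Sensory neurons of the cranial ganglia arise from neural crest and from ectodermal placodes, while the glia of the ganglia arise from the crest. Isl1, a LIM homeodomain factor, and Pou4f1, a POU homeodomain factor also named Brn3a, together set the general sensory programme of these neurons. Tlx3 and Drgx are homeodomain factors of sensory neurons and of their relay neurons in the hindbrain. Isl2 is a paralog of Isl1 that is used in sensory and motor neurons. Phox2a is a determinant of visceral sensory, autonomic and some cranial motor neurons. Ret is the signalling receptor of the GDNF family, and Ntrk3, also named TrkC, is the receptor of neurotrophin 3. None of these genes is restricted to ganglia: Isl1 is also used in motor neurons and in the second heart field, and Pou4f1 in midbrain neurons.

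The promoters of Pou4f1, Tlx3 and Isl1 are shown because the first 2 were lower in homozygous heads at E9.5 while Isl1 was higher. Each is the 250 bases before the RefSeq start in GRCm38.p6, written 5′ to 3′ on the gene's minus strand, with the E-box CAGCTG in capitals where it occurs.
Pou4f1: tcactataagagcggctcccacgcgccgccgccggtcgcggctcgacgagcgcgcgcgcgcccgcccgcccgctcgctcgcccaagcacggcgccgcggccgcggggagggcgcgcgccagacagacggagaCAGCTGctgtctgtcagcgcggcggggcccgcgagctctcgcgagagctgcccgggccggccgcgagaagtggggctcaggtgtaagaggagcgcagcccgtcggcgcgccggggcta
Tlx3: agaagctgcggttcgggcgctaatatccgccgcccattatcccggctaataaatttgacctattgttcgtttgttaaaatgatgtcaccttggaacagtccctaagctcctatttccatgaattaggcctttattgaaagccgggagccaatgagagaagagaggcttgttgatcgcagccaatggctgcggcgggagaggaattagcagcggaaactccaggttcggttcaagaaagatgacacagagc
Isl1: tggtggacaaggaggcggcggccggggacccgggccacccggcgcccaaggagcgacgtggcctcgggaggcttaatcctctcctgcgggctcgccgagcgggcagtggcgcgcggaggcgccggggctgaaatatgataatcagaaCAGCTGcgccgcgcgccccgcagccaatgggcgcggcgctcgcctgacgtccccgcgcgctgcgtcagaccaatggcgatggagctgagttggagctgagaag
The windows lie at chr14:104468000-104468249 for Pou4f1, chr11:33203589-33203838 for Tlx3 and chr13:116309689-116309938 for Isl1. RefSeq promoters were matched for 6 of the 8 genes, all but Ret and Ntrk3. Both strands were searched for CAGCTG and CAGATG, letters read by basic helix-loop-helix factors, and for TAATTA, a homeodomain core; CAGCTG and TAATTA read the same on both strands. CAGCTG occurred once in Pou4f1, 118 bases before the start, and once in Isl1, 103 bases before the start. It did not occur in the windows of Tlx3, Isl2, Phox2a or Drgx, and CAGATG and TAATTA occurred in none of the 6. Among 32851 promoter windows of the same length, 13.0% held CAGCTG, 14.4% CAGATG and 4.84% TAATTA. A match of letters is a description and not a binding site.

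Library totals ran from 13914543 to 31172708 counts. The row Rn45s, a ribosomal RNA precursor, took up 37.4% of heterozygous E9.0 replicate 1 and 4.4% to 16.2% in the other 11 libraries, and the TMM factor of that library was 0.664 against 0.924 to 1.11. Without that library 0 members were called at E9.0 and 1 in the average over stages, beside 62 and 411 of all 15068 genes tested in that fit. The log2 fold change of Isl1 was 0.40 at E9.0 (adjusted p = 0.174 in edgeR) and 0.36 in the average (adjusted p = 0.0173). From E9.0 to E9.5 in heterozygous heads 7 of 7 tested members were still called, beside 4481 of the 15068 genes. The targeted gene Eftud2 was measured at 275.5 to 302.5 CPM in heterozygous and 232 to 236 CPM in homozygous libraries at E9.0, and at 248 to 265 and 221 to 226 CPM at E9.5. In edgeR its log2 fold change at E9.0 was -0.29 ± 0.05 (SE; adjusted p = 0.0193), and at E9.5 -0.19 ± 0.05 (adjusted p = 0.0906). The homozygous libraries thus still held most of the Eftud2 RNA of the controls.

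Isl1 was the most abundant of the 8 genes per length of transcript. In heterozygous libraries at E9.0 it reached 5.17 ± 0.294 CPM per kilobase (kb) of the longest coding transcript (mean ± SD, n = 3), followed by Ret at 4.27 ± 0.434. Pou4f1 at 1.16 ± 0.0626, Isl2 at 1.04 ± 0.255 and Phox2a at 0.792 ± 0.313 came next, and each of these did not differ from its neighbour beyond their SDs. Ntrk3 was at 0.325 ± 0.0152 and Tlx3 at 0.151 ± 0.0154 CPM per kb. Drgx had 2 reads over the 3 libraries, under the floor of 3 counts. Over all annotated exons in place of the longest transcript, Isl1 was at 3.29 ± 0.187 and Ret at 3.45 ± 0.350 CPM per kb, so the order of these genes at E9.0 depends on the length used.

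At E9.5 the order in heterozygous libraries was different. Isl1 led at 7.30 ± 0.776 CPM per kb, followed by Pou4f1 at 2.63 ± 0.816, Isl2 at 1.82 ± 0.159 and Phox2a at 1.59 ± 0.161, where Pou4f1 and Isl2, and Isl2 and Phox2a, did not differ beyond their SDs. Tlx3 at 1.18 ± 0.141 and Ret at 1.12 ± 0.310 did not differ beyond theirs either. Ntrk3 was at 0.223 ± 0.0505 and Drgx at 0.0636 ± 0.0201 CPM per kb. In homozygous libraries Isl2 was at 1.94 ± 0.348, Phox2a at 1.73 ± 0.285, Pou4f1 at 1.37 ± 0.211 and Ret at 1.17 ± 0.331 CPM per kb, and each of these did not differ from its neighbour beyond their SDs. Tlx3 stood below them at 0.540 ± 0.173 CPM per kb.

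**Figure D1:**
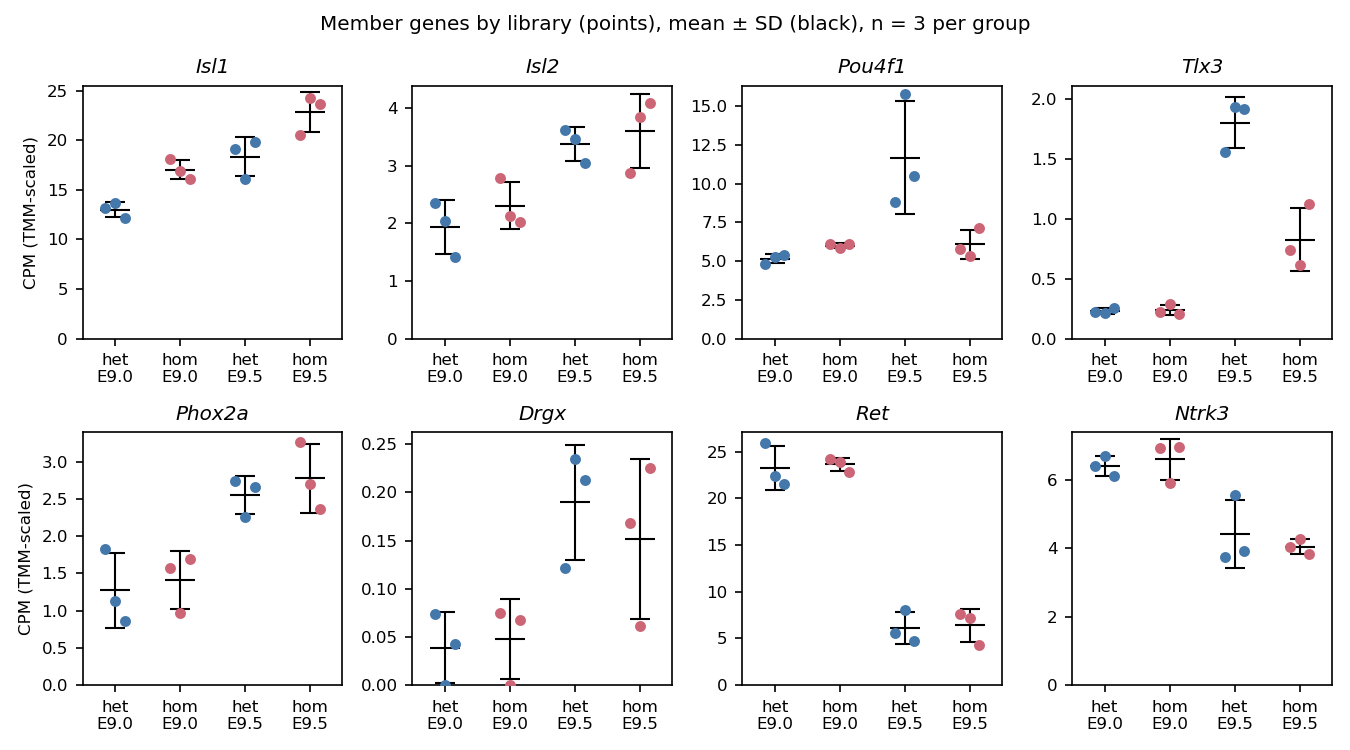
Level of each of the 8 genes in CPM (vertical axis, TMM-scaled) in the 12 libraries, grouped by genotype (het, hom) and stage; points are libraries and black bars the mean ± SD of 3 libraries. Pou4f1 and Tlx3 separate the genotypes at E9.5, where every homozygous library lies below every heterozygous one, while Isl1 lies higher in the homozygous libraries at both stages.

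At E9.5, Pou4f1 and Tlx3 fell in homozygous heads, and they were the only members of the 7 tested that passed an adjusted p of 0.05 in either direction (edgeR quasi-likelihood F test, Benjamini-Hochberg over all 14810 genes). Of all genes tested 1.89% were called at this stage, and 0.702% were called lower. The median log2 fold change of the 7 members was 0.062, beside -0.0026 over all genes.

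Pou4f1 lies on chromosome 14 of mm10 (GRCm38), from 104461676 to 104467999. Its level at E9.5 was 8.81, 15.8 and 10.5 CPM in heterozygous replicates 1, 2 and 3, and 5.80, 5.31 and 7.13 CPM in homozygous replicates 1, 2 and 3. The groups did not overlap, and heterozygous replicate 2 stood above the other libraries. The means were 11.7 ± 3.63 and 6.08 ± 0.938 CPM (SD, n = 3), a log2 fold change of -0.95 ± 0.17 (SE) with a 95% interval of -1.32 to -0.578 and an adjusted p of 0.0107 in edgeR. This is 1.93-fold lower in the homozygous libraries. Without heterozygous replicate 2 the log2 fold change was -0.66 with an adjusted p of 0.0277 in edgeR. The call was lost without homozygous replicate 1 (adjusted p = 0.0505) or homozygous replicate 2 (adjusted p = 0.0663), and when the spread was estimated from the E9.5 libraries alone (adjusted p = 0.102).

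Tlx3 lies on chromosome 11 from 33200752 to 33203589. It was read 51, 66 and 54 times in heterozygous E9.5 replicates 1, 2 and 3, and 22, 20 and 30 times in the homozygous replicates. These are levels of 1.56, 1.94 and 1.92 CPM against 0.742, 0.614 and 1.13 CPM. Every homozygous library lay below every heterozygous library. The means of 1.80 ± 0.215 and 0.827 ± 0.266 CPM (SD, n = 3) gave a log2 fold change of -1.14 ± 0.24 (SE), a 95% interval of -1.64 to -0.631 and an adjusted p of 0.0210 in edgeR, or 2.20-fold lower. The reads of Tlx3 were few. Its call was lost without heterozygous replicate 2 (adjusted p = 0.0804), heterozygous replicate 3 (0.0668), homozygous replicate 1 (0.0789) or homozygous replicate 2 (0.135), with DESeq2 (0.0542) and with the E9.5 libraries alone (0.0559).

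Other neuronal and crest genes moved beside these transcription factors. Of 11 genes of postmitotic neurons in general, 9 were lower in homozygous libraries at E9.5 and 2 were called, Tubb3, a neuronal tubulin, and Ina, a neurofilament subunit; the median log2 fold change of the list was -0.313. Tubb3 fell from 94.4 ± 10.1 to 58.5 ± 2.42 CPM, a log2 fold change of -0.69 ± 0.07 with an adjusted p of 0.000172 in edgeR, and Ina fell with a log2 fold change of -0.79 ± 0.15 and an adjusted p of 0.0107. Both were also called in all 6 fits without an E9.5 library. The summed level of the list was 253 to 286 CPM in heterozygous and 203 to 218 CPM in homozygous libraries at E9.5. At E9.0 it was 117 to 123 and 111 to 115 CPM, again without overlap. At that stage 5 of the 11 were higher and 6 lower, with a median log2 fold change of -0.069. None was called there by edgeR, DESeq2 or limma-voom. An unadjusted p under 0.05 in edgeR was found for 6 of the 11 at E9.0, beside 1969 of all 14810 genes.

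Of 7 tested genes of neural crest and early ganglion glia, 5 were called lower at E9.5, and the median log2 fold change was -0.783. Tfap2b, a crest transcription factor, fell by 1.15 on the log2 scale (adjusted p = 1.99e-05 in edgeR). Sox10, the crest and glial determinant, fell by 1.14 (adjusted p = 0.0148), a call that was lost without heterozygous replicate 2 (0.0555) or homozygous replicate 2 (0.0606). Of the other calls, that of Foxd3, an early crest factor, was lost with the E9.5 libraries alone (0.0624) and without homozygous replicate 2 (0.0866) or 3 (0.0518), and that of Fabp7 with total counts only (0.132) and in 4 of the 6 fits without an E9.5 library. The summed level of the crest and glia list was 146 to 156 CPM in heterozygous and 108 to 121 CPM in homozygous libraries at E9.5. At E9.0 it was 165 to 177 and 128 to 142 CPM, again without overlap, with a median log2 fold change of -0.261. Tfap2b fell at E9.0 as well, by 0.78 (adjusted p = 0.000773 in edgeR). That call was lost with total counts only (-0.59, adjusted p = 0.108), which moved the median of all genes to 0.19. Tfap2b was the only gene of the list called at that stage. The log2 fold change of Pou4f1 at E9.0 was 0.21, with an interval of -0.23 to 0.652. For Tlx3 at E9.0 there were 13 heterozygous and 11 homozygous pooled reads. Its interval of -1.041 to 1.128 was too wide to tell whether Tlx3 was lower at that stage. Whether fewer crest or glial cells had a part in the lower Pou4f1 and Tlx3 was not tested.

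Neurons of the hindbrain and dorsal neural tube are another source of Tlx3, Pou4f1, Drgx and Phox2a. Of 7 tested markers of such neurons, 6 were lower in homozygous libraries at E9.5, and 2 were called, Lhx9 at -1.88 ± 0.37 and Barhl1 at -1.38 ± 0.34 on the log2 scale, with adjusted p-values of 0.0180 and 0.0476 in edgeR. The call of Lhx9 was lost without heterozygous replicate 1 (0.0548) or homozygous replicate 1 (0.0743) or 2 (0.107), and with the E9.5 libraries alone (0.126), and that of Barhl1 without heterozygous replicate 1 (0.119) or 3 (0.142) or homozygous replicate 1 (0.164) or 2 (0.206). Barhl1 was also lost with DESeq2 (0.0561), with the E9.5 libraries alone (0.105), with dispersions that were not robust (0.0551) and with total counts after Rn45s was removed (0.0539). Their summed level was 15.6 to 18.1 CPM in heterozygous and 10.2 to 14.6 CPM in homozygous libraries, and none of the 8 markers was at 0. At E9.0, 5 of the 7 were lower and none was called by edgeR, DESeq2 or limma-voom or had an unadjusted p under 0.05 in edgeR, but the median log2 fold change was about the same at the 2 stages, -0.329 at E9.0 and -0.337 at E9.5. Their summed level at E9.0 was 15.1 to 22.5 CPM in heterozygous and 13.3 to 16.8 CPM in homozygous libraries, and these ranges overlapped. The part of such neurons in the lower Pou4f1 and Tlx3 was not tested.

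**Figure D2:**
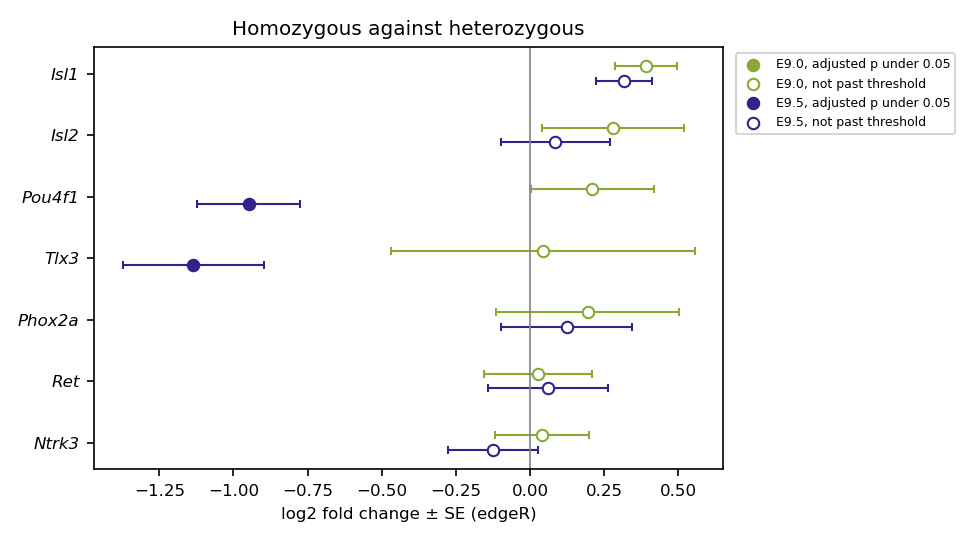
Log2 fold change ± SE of the 7 tested genes (horizontal axis), homozygous against heterozygous, at E9.0 (green) and E9.5 (purple); filled circles have an adjusted p under 0.05. Filled circles are found at E9.5 for Pou4f1 (-0.95) and Tlx3 (-1.14), while Isl1 lies to the right of 0 at both stages.

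Isl1, on chromosome 13 from 116298281 to 116309689, went the other way. At E9.0 it was measured at 13.1, 13.7 and 12.2 CPM in heterozygous replicates 1, 2 and 3 and at 18.1, 16.9 and 16.1 CPM in the homozygous replicates. At E9.5 the values were 19.1, 16.1 and 19.8 CPM against 20.6, 24.3 and 23.7 CPM. The genotypes did not overlap at either stage. Log2 fold changes of 0.39 ± 0.10 (E9.0) and 0.32 ± 0.09 (E9.5) resulted, and neither passed the threshold by itself (adjusted p = 0.117 and 0.110 in edgeR).

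Averaged over both stages, Isl1 rose in homozygous heads by 0.35 ± 0.07 on the log2 scale (1.28-fold, adjusted p = 0.0106 in edgeR). It was higher in 6 of 6 homozygous libraries than in every heterozygous library of the same stage. It was the only 1 of the 7 tested members called in this average, in which 2.96% of all genes were called, and the call was kept in each of the 13 other settings and the 12 fits without 1 library. Pou4f1 at -0.37 ± 0.14 (adjusted p = 0.167) and Tlx3 at -0.55 ± 0.29 (adjusted p = 0.359) did not pass in the average.

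Heart and motor neuron genes were followed because these cells also use Isl1. All 8 heart genes were higher in homozygous libraries at E9.5 and 7 of 8 at E9.0, with medians of 0.389 and 0.339 on the log2 scale. At E9.5 the call held for Tbx1, a gene of the second heart field and pharynx, at 0.96 ± 0.12 (adjusted p = 0.00092 in edgeR) in each of the 6 fits without an E9.5 library, while those of Nkx2-5 and Mef2c were lost in all 6 (adjusted p of 0.0541 to 0.181 and 0.0852 to 0.138). The summed level was 903 to 1189 CPM in heterozygous and 1169 to 1481 CPM in homozygous libraries at E9.5, and 96.9 to 191 and 133 to 254 CPM at E9.0, so it overlapped at both stages. The part of heart tissue in the Isl1 difference was not tested.

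Of 7 tested motor neuron markers 6 were higher in homozygous libraries at each stage, with medians of 0.474 at E9.0 and 0.637 at E9.5 on the log2 scale. At either stage 0 were called by edgeR, DESeq2 or limma-voom. An unadjusted p under 0.05 in edgeR was found for 1 at E9.0 and 4 at E9.5, beside 1969 and 1984 of all 14810 genes. The summed level of the motor neuron markers was 61.3 to 62.7 CPM in heterozygous and 84.7 to 98.8 CPM in homozygous libraries at E9.5. At E9.0 the sums overlapped, at 13.4 to 21.1 and 16.4 to 26.0 CPM. Most of the E9.5 sum was Tbx20, which heart muscle also expresses, at 53.7 ± 0.928 and 82.1 ± 7.67 CPM. Mnx1, a defining gene of motor neurons, was at 0.179 ± 0.0334 and 0.281 ± 0.0790 CPM. The part of motor neurons in the Isl1 difference was not tested.

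Isl2, on chromosome 9 from 55538672 to 55546180, showed no genotype difference past the threshold. At E9.5 its level was 3.63, 3.46 and 3.05 CPM in heterozygous and 2.87, 3.84 and 4.09 CPM in homozygous replicates 1, 2 and 3. The homozygous libraries lay on both sides of the heterozygous ones. The log2 fold change was 0.09 ± 0.18 at E9.5, with a 95% interval of -0.306 to 0.476, and 0.28 ± 0.24 at E9.0, with an interval of -0.225 to 0.785.

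Phox2a, the determinant of visceral neurons, lies on chromosome 7 from 101818313 to 101822726. Its level was 2.74, 2.26 and 2.66 CPM in heterozygous and 3.27, 2.70 and 2.36 CPM in homozygous replicates at E9.5, and 1.84, 1.13 and 0.86 against 1.58, 0.974 and 1.69 CPM at E9.0. The genotypes overlapped at both stages. The log2 fold change was 0.12 ± 0.22 at E9.5 and 0.20 ± 0.31 at E9.0. The exons of Phox2a overlap those of Inppl1, which lies on the opposite strand and was measured at 128 to 137 CPM on average in the 4 groups. Whether counting used strand is not given in the sources used here, so the reads of Phox2a are uncertain.

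The receptors Ret and Ntrk3 showed no difference between genotypes past the threshold. Ret, on chromosome 6 from 118151745 to 118197718, was at 26.0, 22.4 and 21.5 CPM in heterozygous and 24.2, 23.9 and 22.8 CPM in homozygous replicates at E9.0. At E9.5 it was at 5.58, 8.01 and 4.76 against 7.62, 7.22 and 4.31 CPM. The genotypes overlapped at both stages, and the 95% interval of the log2 fold change ran from -0.368 to 0.421 for E9.0 and from -0.375 to 0.499 for E9.5.

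Ntrk3, on chromosome 7 from 78175959 to 78738012, was at 6.39, 6.70 and 6.11 CPM in heterozygous and 6.92, 5.90 and 6.96 CPM in homozygous replicates at E9.0. At E9.5 it was at 3.75, 5.55 and 3.91 against 4.05, 4.27 and 3.83 CPM. Here too the genotypes overlapped at both stages. The 95% interval of the log2 fold change ran from -0.294 to 0.374 for E9.0 and from -0.446 to 0.199 for E9.5.

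Drgx, on chromosome 14 from 32599407 to 32649246, was near the limit of detection. It was read 1, 0 and 1 times in the heterozygous and 1, 0 and 1 times in the homozygous libraries at E9.0. At E9.5 it was read 4, 8 and 6 times against 5, 2 and 6 times. Pooled over the 3 libraries, the E9.5 level was 0.189 CPM in heterozygous heads, with an exact 95% Poisson interval of 0.112 to 0.299, and 0.146 CPM in homozygous heads, with an interval of 0.0779 to 0.250. These intervals cover counting error only. They overlapped between the genotypes, and the difference was not tested in edgeR.

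At E9.0 none of the 7 tested members was called by edgeR or by DESeq2, beside 0.587% of all genes called by edgeR. At an unadjusted p under 0.05 there was 1 member, Isl1, in the edgeR model over all genes, beside 1969 of the 14810 genes. All 7 members had a point estimate above 0, with a median log2 fold change of 0.195 beside -0.0043 over all genes. With an offset for GC content and length Tlx3 was at -0.11, and leaving out 1 library turned the sign of Tlx3, Ret, Phox2a or Ntrk3. The genotypes did not overlap for 2 of the 7, Isl1 and Pou4f1, both higher in the homozygous libraries, beside 17.3% of all genes without overlap.

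Pou4f1 at E9.0 was at 4.84, 5.26 and 5.38 CPM in heterozygous and 6.09, 5.84 and 6.08 CPM in homozygous replicates, a log2 fold change of 0.21 ± 0.21 (adjusted p = 0.703 in edgeR). The homozygous libraries were thus above the heterozygous ones at E9.0 and below them at E9.5. Tlx3 was read only 3, 4 and 6 times in heterozygous and 3, 5 and 3 times in homozygous E9.0 libraries, and its log2 fold change was 0.04 ± 0.51. At E9.5 the genotypes did not overlap for 3 of the 7, Isl1, Pou4f1 and Tlx3, beside 20.9% of all genes.

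The difference between the genotype effects at the 2 stages was tested directly. For Pou4f1 the log2 fold change at E9.5 minus that at E9.0 was -1.16 ± 0.27, with an unadjusted p of 0.000615 and an adjusted p of 0.180 in edgeR, so it did not pass the threshold over all genes; DESeq2 gave an adjusted p of 0.0243. For Tlx3 it was -1.18 ± 0.58, with an adjusted p of 0.602 in edgeR. In all, 0 of 7 members were called by edgeR, beside 0.0675% of all genes. At an unadjusted p under 0.05 in edgeR there was 1 of 7, beside 1274 of the 14810 genes. DESeq2 called 1 of the members, Pou4f1. That the Pou4f1 difference belongs to E9.5 alone was therefore not shown by edgeR.

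More of the members were called between stages than between genotypes. In heterozygous heads 7 of 7 tested members were called, 5 higher and 2 lower, beside 35.2% of all genes called, 19.2% higher and 16.0% lower. In homozygous heads 6 of 7 were called, 4 higher and 2 lower, beside 35.4% of all genes, 19.6% higher and 15.8% lower. The comparisons within and between genotypes share libraries.

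Among the homeobox genes, Tlx3 rose by 2.92 ± 0.33 on the log2 scale in heterozygous heads (adjusted p = 6.32e-06 in edgeR) and by 1.74 ± 0.38 in homozygous heads (adjusted p = 0.00219). Counted in pooled reads, its level at E9.5 was 7.69 times that at E9.0 in heterozygous heads, with an exact 95% interval of 4.38 to 14.7, and 3.36 times in homozygous heads, with an interval of 1.77 to 7.02. Pou4f1 rose by 1.17 ± 0.19 in heterozygous heads (adjusted p = 0.000179), from 5.16 ± 0.278 to 11.7 ± 3.63 CPM. In homozygous heads Pou4f1 was at 6.00 ± 0.140 and 6.08 ± 0.938 CPM, a log2 fold change of 0.01 ± 0.20 with a 95% interval of -0.401 to 0.431 (adjusted p = 0.964). It was the only tested member not called in homozygous heads.

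Phox2a rose by 1.07 ± 0.26 in heterozygous and 0.995 ± 0.26 in homozygous heads on the log2 scale, with adjusted p-values of 0.00492 and 0.00786 in edgeR. Isl1 rose by 0.50 ± 0.10 and 0.42 ± 0.10, with adjusted p-values of 0.00113 and 0.00325. Isl2 rose by 0.84 ± 0.21 (adjusted p = 0.00554) and 0.65 ± 0.21 (adjusted p = 0.0250). The Isl2 call in homozygous heads was lost without E9.0 replicate 2 (0.0832) or 3 (0.0900), or without E9.5 replicate 2 (0.0737) or 3 (0.0920). Drgx, which was not tested, was at 5.26 times its E9.0 level in pooled heterozygous reads, with an exact 95% interval of 1.26 to 46.7, and at 3.33 times in homozygous reads, with an interval of 0.754 to 30.4.

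The receptors went down over the same interval. Ret fell by 1.91 ± 0.19 on the log2 scale in heterozygous heads, from 23.3 ± 2.37 to 6.12 ± 1.69 CPM (adjusted p = 7.67e-06 in edgeR), and by 1.88 ± 0.20 in homozygous heads, from 23.6 ± 0.719 to 6.38 ± 1.81 CPM (adjusted p = 8.89e-06). These are 3.77-fold and 3.68-fold lower levels. Ntrk3 fell by 0.53 ± 0.15 (adjusted p = 0.0126) and by 0.70 ± 0.16 (adjusted p = 0.00264). With libraries scaled by total counts only, the Ntrk3 calls were lost at -0.17 (adjusted p = 0.461) and -0.53 (adjusted p = 0.0511). That scaling moved the median of all genes to 0.377 in heterozygous and 0.183 in homozygous heads, so these values are not comparable with those above. In heterozygous heads the Ntrk3 call was also lost without E9.5 replicate 1 (0.0644) or 3 (0.0553).

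**Figure D3:**
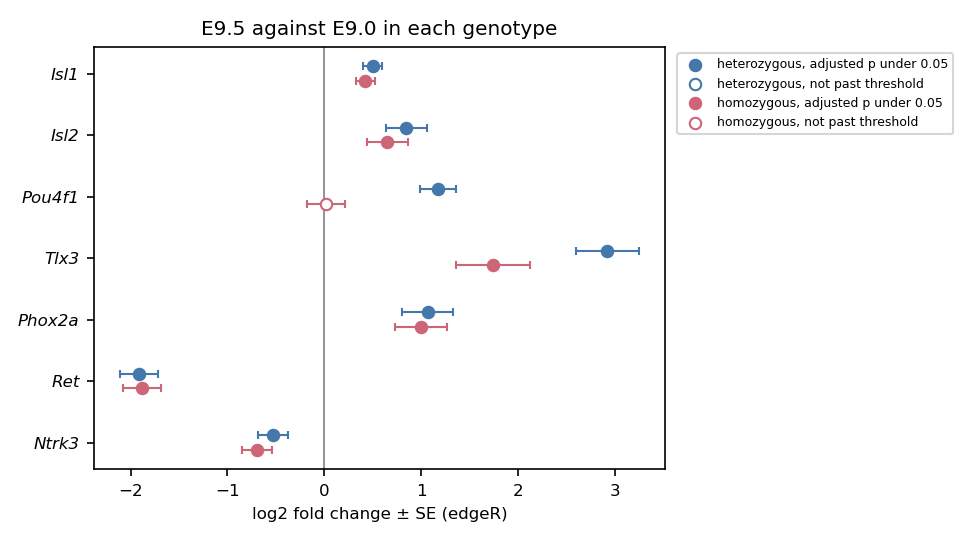
Log2 fold change ± SE of the 7 tested genes from E9.0 to E9.5 (horizontal axis) in heterozygous (blue) and homozygous (red) heads; filled circles have an adjusted p under 0.05. Pou4f1 in homozygous heads is the open circle at 0.01, and Ret and Ntrk3 lie to the left of 0 in both genotypes.

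Ratios between members of the same library need no scaling factor, and 12 such comparisons were made, after the values had been seen. At E9.5 there were 46.1, 97.6 and 52.9 Pou4f1 counts per 100 Isl1 counts in heterozygous replicates 1, 2 and 3, and 28.2, 21.9 and 30.1 in the homozygous replicates. The groups did not overlap, and their means were 65.5 ± 28.0 and 26.7 ± 4.29 (SD, n = 3; exact two-sided permutation p = 0.1, the smallest that 3 against 3 libraries can give; 0.4 adjusted over the 12). The difference of -38.8 was -22.8 without heterozygous replicate 2. At E9.0 the means were 39.8 ± 3.76 and 35.3 ± 2.11 (exact permutation p = 0.2), and the groups overlapped.

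Tlx3 was likewise lower relative to Isl1 at E9.5, with 9.94 ± 1.95 counts per 100 Isl1 counts in heterozygous and 3.63 ± 1.11 in homozygous libraries (SD, n = 3; exact permutation p = 0.1, 0.4 adjusted). Tlx3 per 100 Pou4f1 counts, in contrast, overlapped between genotypes at E9.5, at 16.1 ± 3.30 and 13.4 ± 2.18 (exact permutation p = 0.3). Isl2 per 100 Isl1 counts overlapped as well, at 18.6 ± 3.04 and 15.7 ± 1.66 (exact permutation p = 0.3), as did Phox2a and Ret at this stage. At E9.0 only Ret per 100 Isl1 counts did not overlap, at 179 ± 17.2 and 139 ± 4.49 (exact permutation p = 0.1, 0.4 adjusted).

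**Figure D4:**
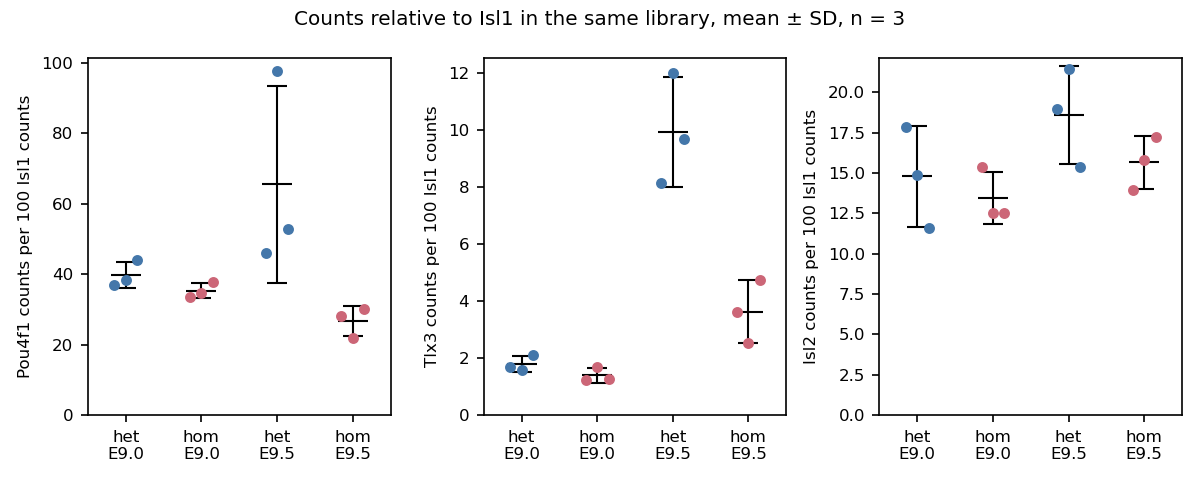
Counts of Pou4f1 (left), Tlx3 (middle) and Isl2 (right) per 100 Isl1 counts of the same library (vertical axes), by genotype and stage; points are libraries and black bars the mean ± SD of 3 libraries. At E9.5 the homozygous libraries lie below the heterozygous ones for Pou4f1 (26.7 against 65.5) and Tlx3 (3.63 against 9.94) and overlap them for Isl2.

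Other transcription factors of ganglion neurons and their precursors, 15 genes of which 12 were tested, had no common direction at E9.5: 6 were higher and 6 lower in homozygous libraries, with a median log2 fold change of -0.009. At E9.5, 8 of the 12 had an unadjusted p under 0.05 in edgeR, 4 of them higher and 4 lower, beside 1984 of all 14810 genes. There edgeR and DESeq2 each called 1 and limma-voom called 3. The gene called by edgeR was Tlx1, a relative of Tlx3, which rose by 0.61 ± 0.15 (adjusted p = 0.0459 in edgeR), from 4.93 ± 0.674 to 7.52 ± 0.384 CPM. The Tlx1 call was lost in each of the 6 fits without an E9.5 library (adjusted p of 0.0541 to 0.171). Neurog1, the precursor factor that acts before Pou4f1 in sensory neurons, was at 7.98 ± 1.46 and 6.28 ± 1.06 CPM (adjusted p = 0.355), and Neurod1, a factor of newly formed sensory neurons, at 9.30 ± 0.635 and 8.77 ± 1.24 CPM (adjusted p = 0.882). From E9.0 to E9.5, 11 of the 12 rose in heterozygous heads and 10 were called higher by edgeR, beside 19.2% of all genes. In homozygous heads 11 of the 12 rose and 11 were called higher, beside 19.6% of all genes. At E9.0 none was called between genotypes by edgeR, DESeq2 or limma-voom, and the median was -0.055. At that stage 6 of 12 had an unadjusted p under 0.05 in edgeR, beside 1969 of all 14810 genes.

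Ligands, receptors and co-receptors of the neurotrophin and GDNF families other than Ret and Ntrk3 numbered 15, of which 13 were tested. None was called between genotypes by edgeR at either stage. An unadjusted p under 0.05 in edgeR was found for 1 at E9.0 and 4 at E9.5, beside 1969 and 1984 of all 14810 genes. DESeq2 and limma-voom each called 0 at E9.0 and 1 at E9.5. The medians were 0.071 at E9.0 and -0.100 at E9.5 on the log2 scale. Ntrk2, the receptor of brain-derived neurotrophic factor, was at 14.7 ± 1.93 CPM in heterozygous and 19.4 ± 1.56 CPM in homozygous libraries at E9.5 (adjusted p = 0.0596). Over the interval from E9.0 to E9.5, 9 of the 13 rose and 4 fell in heterozygous heads, with 7 called higher and 1 called lower by edgeR. In homozygous heads 10 rose and 3 fell, with 8 called higher and 1 called lower. Of all genes, 19.2% were called higher and 16.0% lower in heterozygous heads, and 19.6% and 15.8% in homozygous heads. The gene called lower in both genotypes was Gfra2, a co-receptor of Ret.

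Placode genes were followed as markers of the other source of cranial sensory neurons. Of 8 tested at E9.5, Pax3, a gene of the ophthalmic placode, dorsal neural tube and crest, fell by 0.65 on the log2 scale (adjusted p = 0.00544 in edgeR), a call lost with the E9.5 libraries alone (0.0649). The median of the placode list was 0.119. Of 5 tested genes that decline as the embryo ages, 0 were called between genotypes at either stage by edgeR, DESeq2 or limma-voom. An unadjusted p under 0.05 in edgeR was found for 1 at E9.0 and 2 at E9.5, beside 1969 and 1984 of all 14810 genes. All 5 were higher in homozygous libraries at E9.5, with a median of 0.070, and 5 of 5 fell from E9.0 to E9.5 in heterozygous heads. In homozygous heads 4 of 5 fell, while Hmga2 was at 334 ± 4.04 CPM at E9.0 and 369 ± 17.7 CPM at E9.5, a log2 fold change of 0.145 ± 0.06 (adjusted p = 0.0575 in edgeR). Whether a difference in age between the groups had a part in the members' values was not tested.

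Blood and vessel genes were read as markers of the other tissue in the heads. Of 7 tested erythroid genes 0 were called at either stage by edgeR, DESeq2 or limma-voom, 0 had an unadjusted p under 0.05, and all 7 were lower in homozygous libraries at E9.5, with a median of -0.194. Of 8 endothelial genes all were higher at E9.5, with a median of 0.642, and 6 were called, beside 1.89% of all genes. Their summed levels at E9.5 were 148 to 214 CPM in heterozygous and 279 to 314 CPM in homozygous libraries. Of the 6 calls, those of Sox18 (adjusted p = 0.0860 in edgeR), Tie1 (0.0777) and Kdr (0.124) were lost with the E9.5 libraries alone, and those of Tie1 (0.0700) and Kdr (0.0570) with total counts only. Sox18 was also lost in 5 of the 6 fits without an E9.5 library (0.0602 to 0.147), and Tie1 without homozygous replicate 1 (0.0573) or 3 (0.0597). At E9.0 all 8 endothelial genes were higher, with a median of 0.216, and 0 were called by edgeR, DESeq2 or limma-voom. An unadjusted p under 0.05 in edgeR was found for 3 of them, beside 1969 of all 14810 genes. Their summed levels at E9.0 were 220 to 240 CPM in heterozygous and 262 to 276 CPM in homozygous libraries, without overlap. Of 8 neural tube progenitor genes 1 was called at E9.5, Fabp7, which is also a glial gene and fell by 0.61 (adjusted p = 0.0194 in edgeR), a call lost with total counts only (0.132) and in 4 of the 6 fits without an E9.5 library; the median was -0.039. The part of these tissues in the members' values was not tested.

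The genes whose profile over the 12 libraries was most like the mean of the 7 tested members were named from 12028 genes with a mean of at least 50 counts. On log2 CPM the closest were 1190002F15Rik (Pearson r = 0.956), Bmp6 (0.953), Cspg5 (0.950), Map6 (0.937), Tmem150c (0.922), Tm2d2 (0.912), Pdzrn3 (0.912) and Ly6h (0.908). After each group's mean had been subtracted they were Tox3 (0.970), Ticrr (0.966), 1190002F15Rik (0.958), Aig1 (0.958), Narfl (0.949), Grik5 (0.939), Wdr62 (0.939) and Plekha6 (0.938). The points are 12 libraries that share their stage, genotype and scaling, so these are descriptions with no test, and 1190002F15Rik was the only gene in both lists.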

How the data were processed

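Gene-level RNA-seq of 12 libraries was analysed. The authors deposited raw counts per gene symbol as whole numbers, with no normalization; cutadapt, STAR, featureCounts, MultiQC and mm10 are named, per the submitters' processing notes, without versions or settings. Annotation and strand setting are not given in the sources used here. All columns matched a sample.

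Counts went into edgeR 4.0.16 (R 4.3.3). The filter was filterByExpr by group; 14810 genes passed and 9611 symbols, together no more than 0.0778% of a library, did not. TMM factors, robust quasi-likelihood dispersions and 1 model with 4 group means over 12 libraries were used. F tests were two-sided with Benjamini-Hochberg adjustment over 14810 genes and a threshold of 0.05. The common biological coefficient of variation was 8.77%. Standard errors were derived from the F statistic; intervals are 95%. CPM are TMM-scaled. The fit was tested on simulated data, of which no outcome is given here. Exact permutation tests used scipy 1.17.1.

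Other settings tried were RLE, upper quartile and total-count scaling, DESeq2 1.42.0, limma-voom 3.58.1, other filters, non-robust dispersions, only the groups compared, a replicate block, removal of Rn45s, and leaving out each library; a GC and length offset and the ratios to Isl1 were added after seeing the data. All 8 members are named in each comparison; for the lists, counts and medians are given, with genes past the threshold or defining markers by name (some are not reported here), and the 8 most similar profiles. Members and lists were chosen with earlier results of these data known. Lengths and overlaps come from GENCODE M21 (GRCm38). With a low-count gene such as Drgx, counting error limits precision, and intervals cover counting error only.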

Additional observations from a re-analysis of the deposited data

Results flagged for a closer look

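The point estimate of the genotype effect on Pou4f1 was positive at E9.0 and negative at E9.5. The log2 fold change at E9.5 minus that at E9.0 was -1.16 ± 0.27, with an unadjusted p of 0.000615 and an adjusted p of 0.180 in edgeR. Every homozygous library was above every heterozygous library at E9.0 and below every heterozygous library at E9.5. A member was flagged for such a separation in opposite directions, or for a called difference between stages. The separation therefore restates the rule. Of all genes, 17.3% separated the genotypes at E9.0 and 20.9% at E9.5, in either direction. The fold change at E9.0 was 0.21 ± 0.21 and did not pass the threshold. Groups of 3 libraries were not tested for outlying samples.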

How the results depend on the processing

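The number of members called at E9.5 was 2 in the reported fit, 1 with DESeq2, 1 with a minimum mean of 50 counts, which left Tlx3 out, and 0 with only the groups compared; it ranged from 0 to 2 when 1 library was left out. For the difference between stages DESeq2 called 1 member in place of 0. With the replicate block the members called were 0 at E9.0, 2 at E9.5, 1 in the average, 0 in the difference between stages, and 7 and 6 over time in heterozygous and homozygous heads, the same counts as without it. The deviations of same-numbered libraries correlated at 0.0297 to 0.109, so the numbers were not taken to pair samples.

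Over all genes, edgeR called 87 at E9.0, 280 at E9.5, 439 in the average and 10 in the difference between stages; DESeq2 called 216 at E9.0, 448 at E9.5 and 76 in the difference, limma-voom 5 in the difference, and the GC and length offset 178 at E9.0, 690 in the average and 20 in the difference. Total counts only gave 123 at E9.5, and 3326 in place of 5238 over time in homozygous heads. Without 1 library the counts were 38 to 86, 133 to 252, 246 to 411 and 1 to 16 for E9.0, E9.5, the average and the difference.

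Some small fold changes turned sign, none of them past the threshold. With the GC and length offset Tlx3 at E9.0 was -0.109, Ntrk3 in the average 0.0475 and Phox2a in the difference between stages 0.0673. Total counts only moved the median of all genes to 0.19 at E9.0, 0.0914 in the average and -0.192 in the difference. With that scaling Ntrk3 in the average was 0.0508 and Ret in the difference -0.180. With limma-voom Pou4f1 over time in homozygous heads was -0.00565.

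Without 1 library, log2 fold changes at E9.0 ranged from -0.13 to 0.15 for Tlx3, -0.0322 to 0.11 for Ret, -0.0544 to 0.50 for Phox2a and -0.00330 to 0.12 for Ntrk3. At E9.5 they ranged from -0.0803 to 0.31 for Ret, -0.23 to 0.0861 for Ntrk3, -0.00345 to 0.23 for Phox2a and -0.0102 to 0.23 for Isl2. In the average they ranged from -0.0940 to 0.0625 for Ntrk3 and -0.0271 to 0.17 for Ret. In the difference between stages they ranged from -0.11 to 0.29 for Ret, -0.34 to 0.0136 for Isl2, -0.38 to 0.18 for Phox2a, -0.27 to 0.0473 for Ntrk3 and -0.16 to 0.00133 for Isl1, and over time in homozygous heads from -0.11 to 0.11 for Pou4f1. The cause of these changes was not tested. Tlx3 gave no value at E9.0 with only the groups compared, and no adjusted p in the difference between stages with DESeq2. Depth limits Tlx3 at E9.0 (11 to 13 pooled reads per group) and Drgx.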
